A study of Mus musculus with 7 samples.

Results

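Serpins and tissue factor pathway inhibitors were followed in RNA sequencing counts from mouse epicardial explants. The 9 genes were picked by name from 22738 gene rows in each of 7 libraries, with earlier results of the same comparison known, and all 9 were present and passed the filter on low counts. They are Serpinb9b, Serpinb9, Serpinb6a, Serpine2, Serpinf1, Serpinh1, Serping1, Tfpi and Tfpi2. Because the choice drew on the difference between genotypes, their values in that comparison are given as a description, without p-values.

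The explants grew from ventricles of E12.5 hearts that were placed on gelatin for 48 hours and then removed, after which the cells that had migrated out were cultured for 72 hours more. Both groups were untreated and shared a mixed genetic background of the strains C57BL/6, 129S4Sv/Jae and 129S6/SvEvTac. There were 4 wild type libraries and 3 from Lmnb1-/- embryos, which lack lamin B1, a protein of the nuclear lamina. The labels do not say whether embryos were pooled or whether replicates came from separate embryos, so the tests measure the spread between libraries.

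Serpins are a superfamily of proteins that share a fold with an exposed reactive loop. Inhibitory serpins trap a serine or cysteine protease that cuts this loop, whereas a few members have lost this activity and act as chaperones or signalling proteins. Tfpi and Tfpi2 belong to another family, the Kunitz-type inhibitors, in which small disulphide-bonded domains block a protease reversibly. In mesothelium, the tissue class to which the epicardium belongs, such inhibitors are known for balancing clotting, plasmin activity and matrix turnover.

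Total counts per library ran from 1024898 in wild type replicate 2 to 3066936 in Lmnb1-/- replicate 1. The targeted gene Lmnb1 gave 185 to 567 counts per wild type library and 2 to 4 per Lmnb1-/- library. Xist and Y-linked counts marked wild type replicates 1 and 3 as female and the other 5 libraries as male, so sex was not balanced between genotypes. Among 10775 tested genes, 0.705% were called, meaning a Benjamini-Hochberg adjusted p under 0.05 in the quasi-likelihood test of edgeR, 39 higher and 37 lower in Lmnb1-/- explants. With library totals in place of TMM scaling this split was 47 and 26. Epicardial markers were present in all libraries (16 of 16 tested), with a summed level of 3590 to 4582 CPM in wild type and 3153 to 3786 CPM in Lmnb1-/- libraries. Of the 16, 11 had a log2 fold change of Lmnb1-/- over wild type below 0, with a median of -0.20. At an unadjusted p under 0.05 there were 6, against 13.6% of all tested genes, and 0 were called. Mean levels in wild type and Lmnb1-/- explants were 301 and 214 CPM for Bnc1, and 42.4 and 80.0 CPM for Krt8.

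The clade B serpins Serpinb9b, Serpinb9 and Serpinb6a act inside the cell and lie with several close copies in a cluster on mouse chromosome 13, so the first question is whether reads can tell them apart. The deposited tables hold a pair of unnamed count columns, and the second was taken, from its values alone, to hold reads with more than 1 matching place. The coding sequences of Serpinb9b and Serpinb9 were 86.4% identical over 1119 aligned bases, and those of Serpinb6a and its copy Serpinb6b 86.3% over 1128 bases. The longest identical run between Serpinb9b and Serpinb9 was 62 bases, and that between Serpinb6a and Serpinb6c was 60 bases. These runs are printed below with flanks because they show where a short read could not be placed. Sequences are GENCODE M21 transcripts on GRCm38, 5′ to 3′ on the coding strand, and capitals mark the bases at which each pair differs.
Serpinb9b: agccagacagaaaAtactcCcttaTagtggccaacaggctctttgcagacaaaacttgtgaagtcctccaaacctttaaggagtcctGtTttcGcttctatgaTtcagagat
Serpinb9: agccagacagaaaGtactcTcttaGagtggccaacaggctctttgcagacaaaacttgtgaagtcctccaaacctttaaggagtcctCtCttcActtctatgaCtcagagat
Serpinb6a: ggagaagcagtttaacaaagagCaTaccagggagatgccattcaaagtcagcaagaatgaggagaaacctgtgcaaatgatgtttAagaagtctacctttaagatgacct
Serpinb6c: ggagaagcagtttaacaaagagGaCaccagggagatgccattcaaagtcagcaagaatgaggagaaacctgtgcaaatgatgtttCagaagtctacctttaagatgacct
The Serpinb9b stretch crosses from exon 3 to exon 4 of 7 at chr13:33032983-33033567 on the plus strand, and the Serpinb9 stretch from exon 4 to exon 5 of 8 at chr13:33008073-33008808 on the plus strand. The Serpinb6a stretch crosses from exon 6 to exon 7 of 8 at chr13:33918842-33922980 on the minus strand, and the Serpinb6c stretch from exon 5 to exon 6 of 7 at chr13:33880723-33893858 on the minus strand. The Serpinb9 pair differed at 7 of 112 printed bases and the Serpinb6 pair at 3 of 110.

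Few windows of the member transcripts were ambiguous. Of all 50-base windows along the longest transcript, 0.499% of Serpinb9b, 0.380% of Serpinb9 and 2.68% of Serpinb6a occurred in a transcript of another gene. For Serpine2, Serpinf1, Serpinh1, Serping1, Tfpi and Tfpi2 there were 0 such windows. The longest transcripts of these 6 genes thus had no identical stretch of that length in annotated transcripts of other genes. Their other transcripts and the opposite strand were not searched. The read length is not given in the sources used here, and a shorter read would have more matches. Other copies were harder to separate, with 10.4% of Serpinb6c windows and 78.7% of Serpinb9f windows shared.

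The second count column followed this order only in part. Serpine2, without a shared window, had 12, 4, 9 and 10 counts there in wild type and 0, 9 and 6 in Lmnb1-/- libraries, 6.63% of both columns, while Tfpi had 2 counts in all and Serpinf1, Serpinh1, Serping1 and Tfpi2 had 0. The column held 3.63% of both columns' counts for Serpinb9b, 10.1% for Serpinb9, 6.58% for Serpinb6a and 6.22% for Serpinb6b, summed over the 7 libraries. Serpinb6c had 0 or 1 count in the first column of every library, against 55, 29, 85 and 79 in the second column in wild type and 115, 35 and 29 in Lmnb1-/- explants. The second column held 99.3% of its counts although 10.4% of its windows were shared, and no level is given for it. Serpinb9c, Serpinb9d, Serpinb9e, Serpinb9f and Serpinb9g had at most 1 count in either column of any library.

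For Serpinb9 the second column was unequal between libraries. Wild type replicates 1 to 4 held 0, 0, 8 and 0 counts there, and Lmnb1-/- replicates 1 to 3 held 21, 22 and 2. Serpinb9b had 1, 0, 2 and 1 in wild type and 18, 15 and 5 in Lmnb1-/- explants in that column. In both genes Lmnb1-/- replicates 1 and 2 held the most counts of the second column. Its share of both columns was 3.46% in wild type and 15.4% in Lmnb1-/- libraries for Serpinb9. For Serpinb9b it was 1.17% and 4.67%. The cause of this difference was not tested. Adding the second column to the first changed the log2 fold change of Lmnb1-/- over wild type from 0.45 to 0.65 for Serpinb9, from 1.504 to 1.56 for Serpinb9b and from 0.18 to 0.16 for Serpinb6a.

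**Figure D1:**
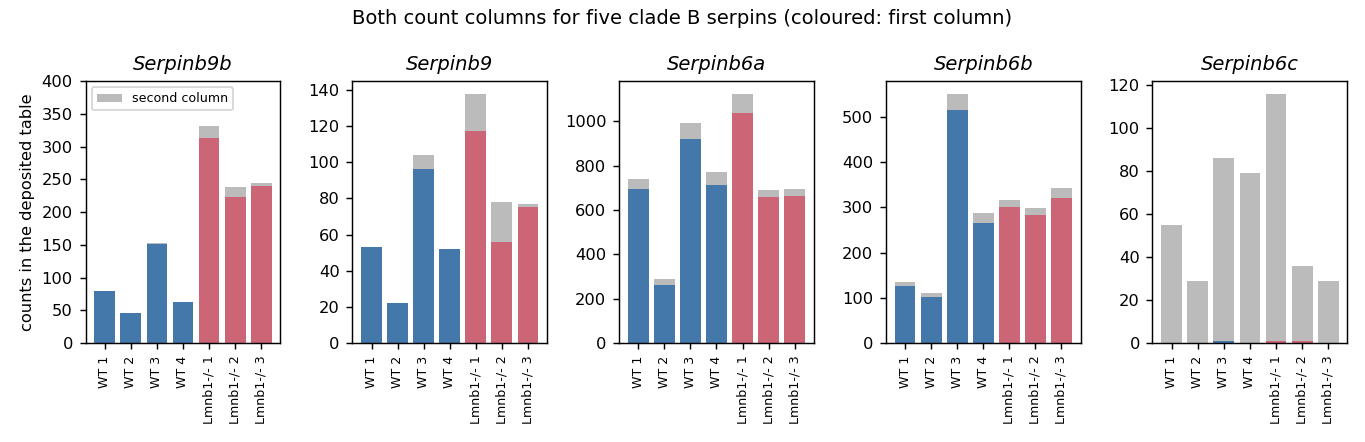
Counts in the first column (coloured) and the second column (grey) of the deposited tables for 5 clade B serpins, 1 bar per library (WT, wild type). The second column is a small part of each bar for Serpinb9b, where it reaches at most 18 counts, and nearly the whole bar for Serpinb6c.

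Serpinb9b was the member with the clearest separation of genotypes. It is a mouse copy related to Serpinb9, and Serpinb9 itself is known as an intracellular inhibitor of granzyme B, the protease of cytotoxic lymphocytes. Wild type replicates 1 to 4 had 79, 46, 151 and 62 counts of Serpinb9b, and Lmnb1-/- replicates 1 to 3 had 313, 223 and 240. In CPM, the count divided by the TMM-adjusted library size and rescaled to a common total, these were 34.4, 47.5, 56.9 and 26.1 against 101, 125 and 123. Every Lmnb1-/- library was above every wild type library. The means were 41.2 ± 13.6 CPM (SD, n = 4) and 116 ± 13.6 CPM (SD, n = 3). The log2 fold change, Lmnb1-/- over wild type, was 1.504 with a standard error (SE) of 0.22.

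Serpinb9 stood at 23.1, 22.7, 36.2 and 21.9 CPM in wild type and 37.6, 31.4 and 38.5 CPM in Lmnb1-/- explants. Wild type replicate 3 lay among the Lmnb1-/- libraries and the ranges overlapped. The log2 fold change was 0.45 (SE 0.20), 0.67 without wild type replicate 3 and 0.69 among male libraries alone, and it did not pass the threshold in any of these fits. The number of Serpinb9b counts per Serpinb9 count was 1.49, 2.09, 1.57 and 1.19 in wild type and 2.68, 3.98 and 3.20 in Lmnb1-/- libraries. This ratio is free of library scaling, and all 3 Lmnb1-/- values were above all 4 wild type values. It uses the first column only. Serpinb9b was chosen with this comparison known and did not overlap on its own, so the ratio is no separate support.

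Serpinb6a, whose product inhibits serine proteases such as cathepsin G, was the most abundant clade B serpin per length. Its level was 302, 273, 346 and 300 CPM in wild type and 333, 370 and 341 CPM in Lmnb1-/- explants. The ranges overlapped, with a log2 fold change of 0.18 (SE 0.11). Its copy Serpinb6b, outside the 9 members, varied more, at 55.2, 106, 194 and 112 CPM in wild type and 96.8, 159 and 165 CPM in Lmnb1-/- explants. Serpinb6a counts per Serpinb6b count ran from 1.78 to 5.47 in wild type and from 2.07 to 3.45 in Lmnb1-/- libraries, so the wild type range enclosed the other.

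Several proteases that the clade B serpins are known to bind were not detected, while other listed proteases were. Gzma, Gzmb, Ctsg and Elane had 0 counts in all 7 libraries. The perforin gene Prf1 had at most 1 count in any library, and Gzmm at most 4. Of 23 genes listed as granzymes, cathepsins and caspases, 8 were tested and 0 were called. Their median was 0.24 on the log2 scale, with 2 at an unadjusted p under 0.05, which 13.6% of all tested genes had. The smallest p-values were those of Ctsl, encoding the lysosomal protease cathepsin L, at 1258 ± 213 CPM (SD, n = 4) and 1669 ± 128 CPM (SD, n = 3), and of Ctsk, encoding cathepsin K. Their adjusted p-values were 0.187 and 0.285 in edgeR. Markers of cytotoxic lymphocytes and mast cells, 15 genes, summed to 0 to 1.51 CPM in wild type and 0.965 to 2.57 CPM in Lmnb1-/- libraries, and 14 of them never reached 3 counts.

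The sequences just before the transcription starts of Serpinb9b and Serpinb9 were also alike, which is shown here because the genes differed in how far the genotypes lay apart. Within the 250 bases before each start, from RefSeq on GRCm38.p6, a local alignment paired 149 bases, of which 78.5% were identical. The same alignment of Serpinb9b with the other members' windows paired at most 75 bases. In the stretches below, 5′ to 3′ on the plus strand, capitals mark bases identical in the alignment. They lie at chr13:33027254-33027412 for Serpinb9b and chr13:33004378-33004535 for Serpinb9.
Serpinb9b: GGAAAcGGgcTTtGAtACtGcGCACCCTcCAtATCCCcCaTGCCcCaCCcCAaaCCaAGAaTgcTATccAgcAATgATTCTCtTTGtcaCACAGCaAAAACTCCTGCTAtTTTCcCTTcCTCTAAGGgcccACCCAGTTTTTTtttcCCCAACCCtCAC
Serpinb9: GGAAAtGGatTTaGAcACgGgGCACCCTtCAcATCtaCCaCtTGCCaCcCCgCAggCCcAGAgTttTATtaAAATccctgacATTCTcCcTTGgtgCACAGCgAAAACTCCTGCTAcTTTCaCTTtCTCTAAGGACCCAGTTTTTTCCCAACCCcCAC
RefSeq windows of 250 bases before to 50 after the start were found for 8 of the 9 members. Both strands were searched for the TATA box as TATAAA, for the AP-1 site as TGANTCA, for the GC box as GGGCGG, for the CCAAT box by its name, and for the E box as CANNTG. The Serpinb9b window matched none of these 5 motifs, and the Serpinb9 window matched GGGCGG and CANNTG once each. That GGGCGG match lay after the start, outside the stretch printed above. Over all 32851 RefSeq windows, TATAAA occurred in 13.6%, TGANTCA in 7.81%, GGGCGG in 35.7%, CCAAT in 37.4% and CANNTG in 72.3%.

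Tfpi2 encodes a secreted Kunitz inhibitor of plasmin and trypsin that binds to the matrix, and it was the least abundant member in wild type. Wild type replicates 1 to 4 gave 14, 4, 10 and 12 counts, and Lmnb1-/- replicates 1 to 3 gave 72, 16 and 34. The levels were 6.09, 4.13, 3.77 and 5.06 CPM against 23.2, 8.97 and 17.5 CPM. All 3 Lmnb1-/- libraries were above all 4 wild type libraries, and they differed among themselves, with replicate 1 the highest and replicate 2 the lowest. The coefficient of variation was 43.2% in Lmnb1-/- explants and 21.8% in wild type. The log2 fold change was 1.80 (SE 0.34), and it ranged from 1.45 without Lmnb1-/- replicate 1 to 2.07 without Lmnb1-/- replicate 2.

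Tfpi encodes the inhibitor that blocks factor Xa and the complex of tissue factor with factor VIIa, the step that starts clotting. It stood at 217, 254, 218 and 250 CPM in wild type and 206, 207 and 253 CPM in Lmnb1-/- explants. The ranges overlapped, with a log2 fold change of -0.08 (SE 0.11). Expressed as a share of Tfpi counts, Tfpi2 counts were 2.80, 1.63, 1.73 and 2.02% in wild type and 11.2, 4.34 and 6.90% in Lmnb1-/- libraries. The groups did not overlap in this share, which does not depend on library scaling. Tfpi2 was chosen with this comparison known and did not overlap on its own, so the share is no separate support.

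The sequence before the Tfpi2 start holds matches to the AP-1 and GC box motifs. Of 3 RefSeq windows for Tfpi2, 1 lay within 1 base of a GENCODE transcript start, and its 120 bases before the start are printed here 5′ to 3′ on the minus strand (chr6:3968376-3968495, GRCm38.p6). Capitals mark a TGANTCA match that begins 77 bases before the start and GGGCGG matches, on either strand, that begin 103 and 55 bases before it.
Tfpi2: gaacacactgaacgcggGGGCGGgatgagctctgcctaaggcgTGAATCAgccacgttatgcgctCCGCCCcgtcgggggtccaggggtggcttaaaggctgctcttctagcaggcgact
A TGANTCA match occurs in 7.81% and a GGGCGG match in 35.7% of all 32851 RefSeq promoter windows of the same length. No other member's window held TGANTCA, nor did the remaining Tfpi2 windows, and Serping1 had no window to search. GGGCGG also occurred in windows of Serpinb9, Serpinb6a, Serpine2, Serpinh1 and Tfpi. These are matches of letters and were not tested for binding.

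**Figure D2:**
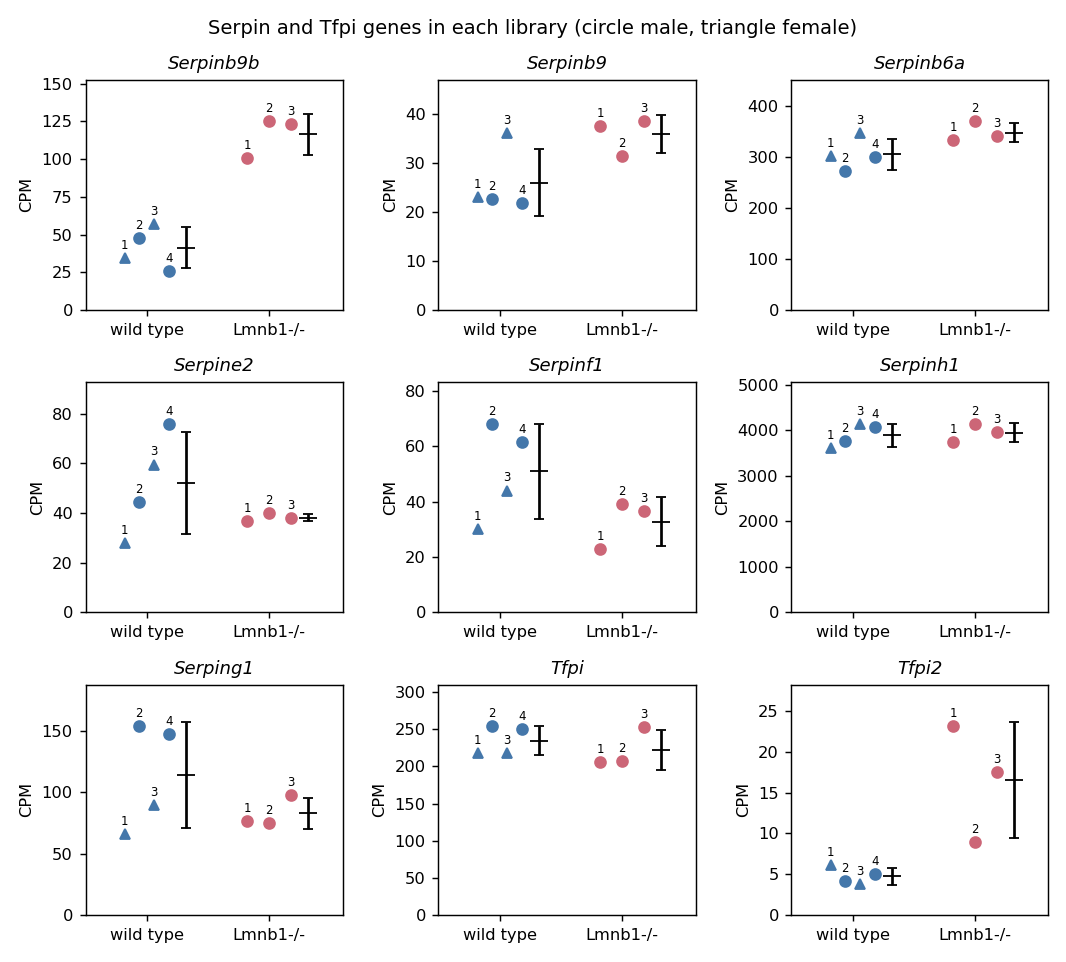
CPM in each of the 7 libraries for the 9 members, with the replicate number beside each point, circles for male and triangles for female libraries, and the mean with its SD. The Lmnb1-/- points lie above all wild type points for Serpinb9b and Tfpi2 and overlap them for the other 7 genes.

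Of the 9 members, Serpinb9b and Tfpi2 were past the threshold in the fit over all 10775 genes, both higher, where 0.362% of tested genes were called higher. These 2 genes were also the ones whose CPM ranges did not overlap, against 13.3% of all tested genes. Since the members were chosen with this comparison known, these counts carry no weight of their own. The call of Serpinb9b was lost on leaving out any 1 of the 3 Lmnb1-/- libraries. Its log2 fold changes were then 1.603, 1.45 and 1.46 without replicates 1, 2 and 3. Those fits called 4, 3 and 13 genes in all. Among fits leaving out 1 library, the call of Tfpi2 was kept only without wild type replicate 1. It was also lost with sex as a covariate and among male libraries alone, where the log2 fold change was 1.82 in both. All fits with a recorded value gave an increase for both genes, which leaves out DESeq2 for Tfpi2.

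Serpine2, Serpinf1 and Serping1 had the widest spread of the 9 genes among wild type libraries, with coefficients of variation of 39.6, 33.9 and 37.9%. Serpine2 encodes protease nexin-1, a secreted inhibitor of thrombin and urokinase. Wild type replicates 1 to 4 stood at 27.8, 44.4, 59.5 and 75.9 CPM, and Lmnb1-/- replicates 1 to 3 at 36.7, 39.8 and 38.03 CPM. The Lmnb1-/- values lay inside the wild type range, with a log2 fold change of -0.46 (SE 0.29).

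Serpinf1 encodes pigment epithelium-derived factor, a secreted serpin without protease inhibitory activity that is known to restrain vessel growth. Its level was 30.0, 68.2, 44.1 and 61.6 CPM in wild type and 22.8, 39.3 and 36.5 CPM in Lmnb1-/- explants, with a log2 fold change of -0.62 (SE 0.29). Serping1 encodes the C1 inhibitor, which blocks the first proteases of the complement and contact pathways. Its level was 65.7, 154, 89.6 and 147 CPM in wild type and 76.9, 74.6 and 97.6 CPM in Lmnb1-/- explants, with a log2 fold change of -0.43 (SE 0.30). In both genes the ranges of the genotypes overlapped.

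The female wild type libraries, replicates 1 and 3, were the lowest of the 4 for both Serpinf1 and Serping1. The means of female and male wild type libraries were 37.0 and 64.9 CPM for Serpinf1 and 77.7 and 151 CPM for Serping1, against 32.9 and 83.0 CPM in the Lmnb1-/- libraries, all male. Among male libraries alone the log2 fold changes were -1.002 (SE 0.23) for Serpinf1 and -0.86 (SE 0.15) for Serping1, and Serping1 was past the threshold there, where 0.622% of tested genes were called lower, while Serpinf1 was not. That fit rests on wild type replicates 2 and 4 only, and with sex as a covariate Serping1 did not pass at -0.86. Fibroblast markers (10 genes) summed to 6700, 15976, 8719 and 7728 CPM across wild type replicates 1 to 4, and to 5616, 5825 and 7001 CPM across the Lmnb1-/- replicates. Their part in the levels of Serpinf1 and Serping1 was not tested, and in bulk RNA fewer cells of a type cannot be told apart from less RNA per cell.

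Serpinh1 encodes HSP47, a serpin of the endoplasmic reticulum that has no inhibitory activity and serves as a chaperone of procollagen. It was the most abundant member, and the one that varied least among wild type libraries, at 3601, 3766, 4134 and 4079 CPM in wild type and 3744, 4145 and 3964 CPM in Lmnb1-/- explants. The coefficient of variation was 6.53% in wild type and 5.08% in Lmnb1-/- libraries, where Serpine2 varied less at 4.16%, and the log2 fold change was 0.02 (SE 0.10). The sign of this difference changed on leaving out wild type replicate 1 or Lmnb1-/- replicate 2.

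Levels of different genes were compared per kilobase of annotated exon. In wild type the order was Serpinh1 at 1594 ± 104 CPM per kilobase, Serpinb6a at 152 ± 15.2, Serping1 at 56.7 ± 21.5, Tfpi at 44.4 ± 3.78, Serpinf1 at 26.3 ± 8.92, Serpine2 at 23.5 ± 9.31, Serpinb9b at 12.7 ± 4.195, Serpinb9 at 7.43 ± 1.95 and Tfpi2 at 3.11 ± 0.679 CPM per kilobase (SD, n = 4). The wild type range of Serping1 overlapped those of Tfpi, Serpinf1 and Serpine2, the ranges of Serpinf1, Serpine2 and Serpinb9b overlapped each other, and that of Serpinb9b overlapped Serpinb9, so the order within these sets is not separated by the libraries. In Lmnb1-/- explants Serpinb9b was at 35.8 ± 4.19 CPM per kilobase (SD, n = 3), above the ranges of Serpinf1 and Serpine2 in the same libraries, and Tfpi2 at 10.8 ± 4.66 overlapped Serpinb9 at 10.3 ± 1.11. The exon lengths join all GENCODE M21 basic transcripts of a gene, which lowers the value of genes with long alternative ends such as Tfpi.

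**Figure D3:**
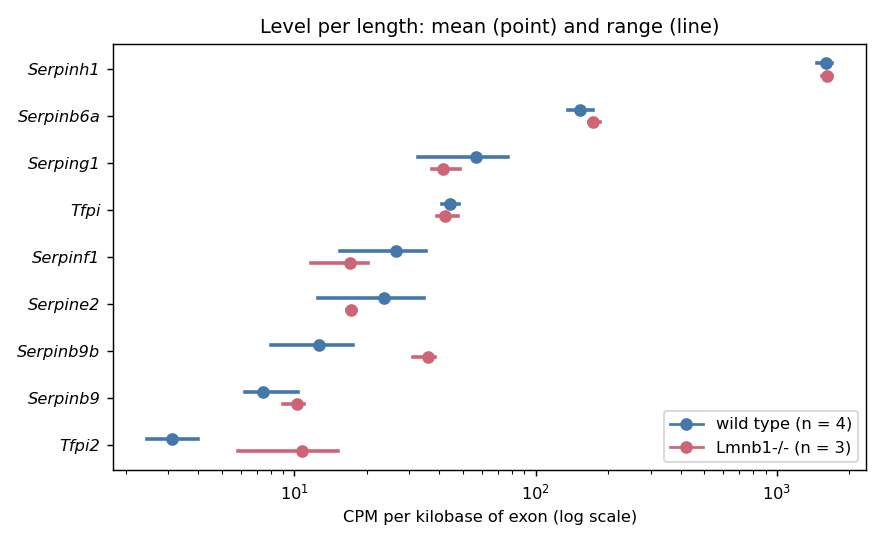
CPM per kilobase of exon on a log axis for the 9 members, with the mean as a point and the range over libraries as a line for each genotype. The mean of Serpinb9b is below those of Serpinf1 and Serpine2 in wild type, with overlapping ranges, and above both in Lmnb1-/- explants, at 12.7 and 35.8 CPM per kilobase.

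Most other serpin rows had few or no counts. Of 56 serpin rows outside the members, 43 never reached 3 counts in a library and 5 were tested, of which 0 were called by edgeR, with 0 at an unadjusted p under 0.05. Serpini1, encoding neuroserpin, was at 38.5 ± 7.07 and 38.8 ± 7.05 CPM, and Serpinb8 at 9.997 ± 5.13 and 9.004 ± 3.62 CPM. The median log2 fold change of the 5 was 0.14, beside -0.02 over all tested genes.

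Genes around tissue factor and thrombin, the targets of Tfpi and Serpine2, had members higher and lower. Of 25 listed, 9 were tested, 5 above 0 and 4 below it. Their median log2 fold change was 0.14, and 0 were called. At an unadjusted p under 0.05 there were 4, against 13.6% of all tested genes, a share that applies to the lists below as well. The 2 genes of smallest p are named here, and 13.3% of all tested genes had CPM ranges without overlap. Procr, the endothelial protein C receptor gene, was at 64.4, 72.3, 86.6 and 70.0 CPM in wild type and 94.5, 127 and 125 CPM in Lmnb1-/- explants, and the ranges did not overlap. The log2 fold change of 0.64 (SE 0.14) had adjusted p = 0.0630 in edgeR. F3, encoding tissue factor, was at 165 ± 23.8 and 215 ± 29.5 CPM (adjusted p = 0.238 by edgeR), again without overlap, its lowest Lmnb1-/- library at 197 and its highest wild type library at 193 CPM. Transcripts of the plasma factors F2, F7, F9 and F10 had at most 2 counts in any library.

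Of 20 genes of plasminogen activation, 13 were tested and 0 were called. The median was -0.01 on the log2 scale, with 3 at an unadjusted p under 0.05. S100a10, encoding the annexin A2 partner that binds plasminogen, was at 730 ± 38.8 and 913 ± 113 CPM, and Plaur, the urokinase receptor gene, at 114 ± 19.0 and 141 ± 6.02 CPM. Their adjusted p-values were 0.214 and 0.313 in edgeR. Plg, which encodes plasminogen itself, had 0 counts in all 7 libraries.

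Other protease inhibitors and matrix proteases were tested as further lists. Of 22 Kunitz and other inhibitors, 6 were tested, 5 of them below 0, and 0 were called, with a median of -0.21 and 1 at an unadjusted p under 0.05. That gene was Spint1, an inhibitor of the hepatocyte growth factor activator, at 24.1 ± 2.72 and 16.4 ± 4.52 CPM (adjusted p = 0.265 by edgeR), and the next was Reck, a membrane inhibitor of matrix proteases, at 16.7 ± 5.85 and 11.3 ± 2.43 CPM. Of 17 matrix metalloproteinases and TIMPs, 11 were tested and 1 fell, with a median of -0.26. This was Timp3, a matrix-bound metalloproteinase inhibitor, at 2698, 3277, 2846 and 2989 CPM in wild type and 1668, 2058 and 2069 CPM in Lmnb1-/- explants. The log2 fold change was -0.61 (SE 0.11), adjusted p = 0.0360 in edgeR. The call was lost without any single library other than wild type replicate 1 (adjusted p = 0.0556 to 0.174 in edgeR). Those fits called 3 to 40 genes in all. The call was also lost with both count columns summed (adjusted p = 0.0506 in edgeR). The log2 fold changes in these fits were -0.52 to -0.66.

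The partners of Serping1 and Serpinh1 showed no called gene. Of 31 complement genes, 19 were tested and 0 were called, 12 above 0, with a median of 0.43 and 4 at an unadjusted p under 0.05. The smallest p-values were those of C1qtnf1, encoding a protein related to C1q, at 6.92 ± 2.18 and 11.9 ± 0.391 CPM, and of C2, at 3.11 ± 0.723 and 6.39 ± 1.37 CPM, with adjusted p-values of 0.247 and 0.279 by edgeR. Macrophage and leukocyte markers, which share C1qa, C1qb and C1qc with this list, summed to 88.9 to 431 CPM in wild type and 47.6 to 746 CPM in Lmnb1-/- libraries, and their part in the complement values was not tested. Of 28 genes of collagen folding, 25 were tested and 0 were called, with a median of -0.07 and 4 at an unadjusted p under 0.05. They included Crtap, part of the collagen prolyl 3-hydroxylation complex, at 82.2, 97.1, 73.1 and 77.2 CPM in wild type against 68.5, 62.8 and 43.7 CPM (adjusted p = 0.235 by edgeR). Glt25d1, encoding a collagen galactosyltransferase, was at 216 ± 34.5 and 177 ± 4.78 CPM (adjusted p = 0.345 by edgeR).

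Collagen chains, the clients of Serpinh1, were mostly below 0 while Serpinh1 stood at 0.02. Of 22 listed, 21 were tested and 19 were below 0, as were 52.4% of all tested genes. The median was -0.46 on the log2 scale, with 12 at an unadjusted p under 0.05 (13.6% of all tested genes) and 0 called by edgeR. Fibroblast markers, which share Col1a1 and Col3a1 with this list, had a median of -0.70 over 9 tested genes, and their part in the collagen values was not tested. Col6a2 was at 19.0 ± 2.92 and 8.84 ± 2.02 CPM and Col6a1 at 77.9 to 118 CPM in wild type and 32.5 to 63.9 CPM in Lmnb1-/- explants, with adjusted p-values of 0.0640 and 0.0724 by edgeR. The summed level of the list was 21311, 42114, 29004 and 30867 CPM in wild type and 21048, 22930 and 22787 CPM in Lmnb1-/- explants, and wild type replicate 1 lay among the Lmnb1-/- libraries. Without that replicate 6 genes of the list fell, in a fit that called 1.56% of all tested genes lower, and 6 fell among male libraries alone, where 0.622% were called lower. Genes for clearance receptors and binding proteoglycans, 19 tested of 21, had 15 below 0, a median of -0.22, 7 at an unadjusted p under 0.05 and 0 called. By DESeq2 the partner lists without a call had 0 called genes too, except 1 of the coagulation list and 2 of the collagen chains, and by limma voom they had 0. Sdc1, encoding syndecan 1, was at 109 ± 6.22 and 133 ± 4.67 CPM (adjusted p = 0.262 by edgeR).

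**Figure D4:**
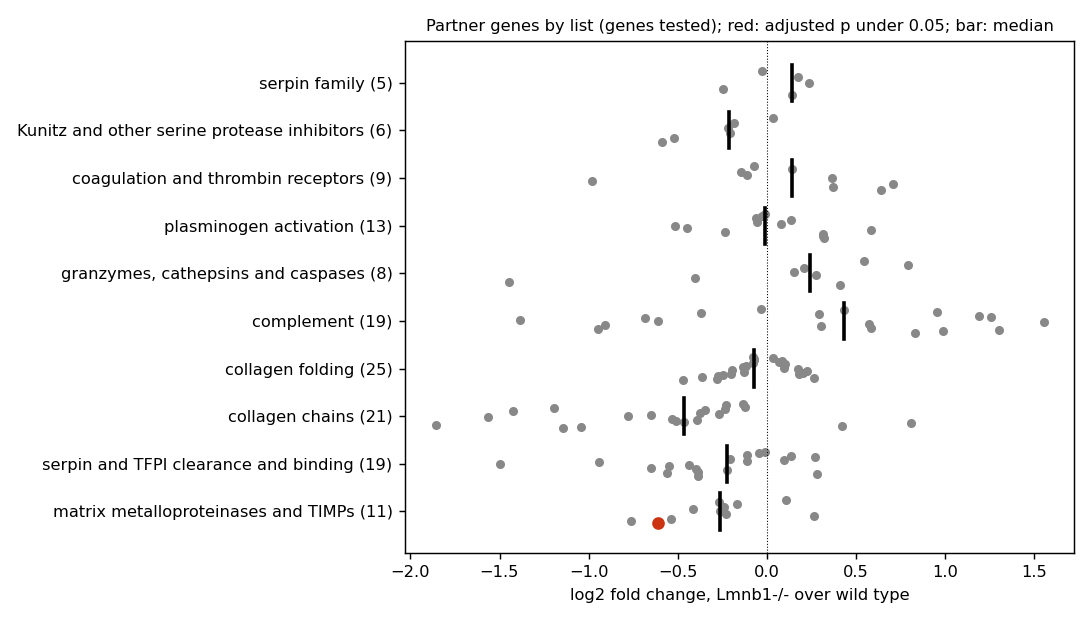
Log2 fold change of Lmnb1-/- over wild type for each tested gene of 10 partner lists, with a bar at each list's median and the number tested in parentheses. Timp3, at -0.61, is the only called gene among them, and 19 of 21 collagen chains lie below 0.

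The genes whose levels followed the called members most closely over the 7 libraries were found by Pearson's r of log2 CPM, as a description. For Serpinb9b they were Fam166a (r = 0.99), Klhl5 (0.98) and Rccd1 (0.98), and for Tfpi2 they were Xrn2 (0.98), Snord96a (0.98) and Mir17hg (0.97). None of these 6 passed the threshold between genotypes, and since the 7 libraries fall into 2 genotypes, r mixes the difference between groups with the likeness within them. Smooth muscle and pericyte markers, 12 tested of 15, had all 12 below 0, with a median of -1.07 on the log2 scale. At an unadjusted p under 0.05 there were 11, against 13.6% of all tested genes. In the same comparison 5 of the markers were called lower, where 0.343% of all tested genes were. These were Cspg4, Pdgfrb, Des, Acta2 and Actg2. None of the 5 passed on leaving out replicate 3 of the wild type, nor on leaving out replicate 1 or 2 of the Lmnb1-/- group (adjusted p = 0.0520 to 0.195 by edgeR), and only Cspg4 passed without Lmnb1-/- replicate 3. The fit without wild type replicate 3 called 4 genes in all, and those without Lmnb1-/- replicates 1, 2 and 3 called 4, 3 and 13. With sex as a covariate Pdgfrb (adjusted p = 0.0865) and Acta2 (adjusted p = 0.0938) did not pass in edgeR. Their summed level was 10974 to 12355 CPM in wild type and 8199 to 8945 CPM in Lmnb1-/- libraries, and their part in the members' values was not tested. Endothelial markers, which would carry Tfpi in vessels, summed to 26.5 to 56.9 CPM in wild type and 36.3 to 51.6 CPM in Lmnb1-/- libraries. Of 12 listed, 3 were tested and 0 were called, with a median of 0.57 on the log2 scale. Mean levels in wild type and Lmnb1-/- explants were 3.29 and 8.80 CPM for Kdr and 5.32 and 8.26 CPM for Egfl7. Tek, the most abundant of the 3, went the other way, at 26.5 and 18.4 CPM.

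**Figure D5:**
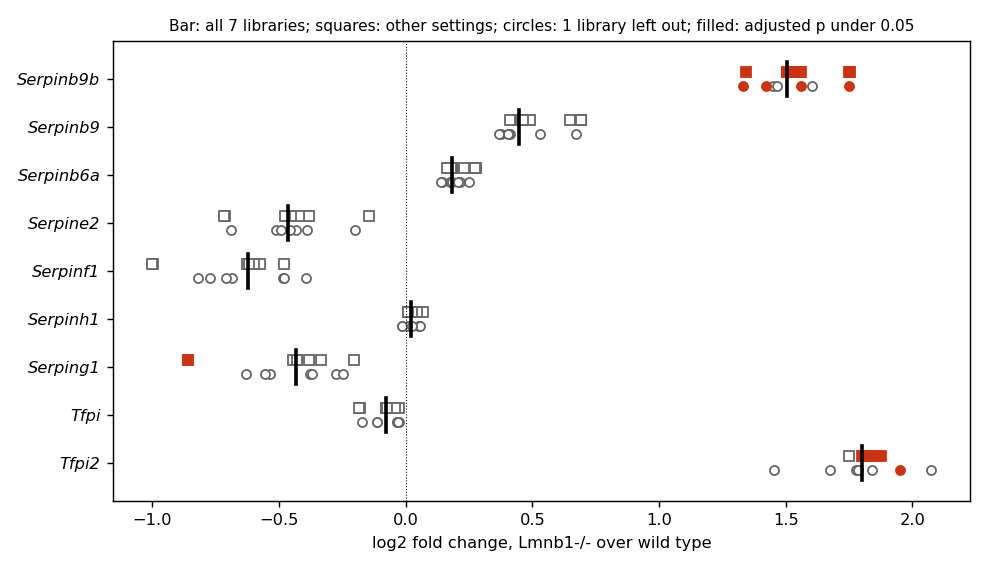
Log2 fold change of Lmnb1-/- over wild type for the 9 members, with a bar for the fit on all 7 libraries, squares for other settings and circles for fits without 1 library, filled where the adjusted p was under 0.05. Serpinb9b stays between 1.33 and 1.75 and Tfpi2 between 1.45 and 2.07, while Serpinh1 lies between -0.02 and 0.07.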

How the data were processed

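RNA was sequenced from 4 wild type and 3 Lmnb1-/- explant libraries, extracted with a PicoPure kit and prepared with TruSeq RNA v2, per the labels' protocols. The deposited tables give whole-number counts per gene name in 2 unnamed columns, with no normalization recorded per the file headers. TopHat, edgeR and mm9 are named in the submitters' processing notes, without versions. Annotation and counting program are not given in the sources used here.

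The first column was used. Genes were filtered with filterByExpr, scaled by TMM and tested with edgeR 4.0.16 (limma 3.58.1, R 4.3.3), using the robust quasi-likelihood test without covariates and Benjamini-Hochberg adjustment over 10775 genes, at a threshold of 0.05. SE is the size of the log2 fold change over the root of the F statistic. CPM use TMM-adjusted totals. The procedure was tested on simulated data, where 5 of 138 calls were false. It called 22.4% of 1.5-fold, 67.3% of 2-fold, 92% of 3-fold and 89.6% of 4-fold changes, so small changes can be missed. Members and lists were chosen with earlier results of these data known. Of 318 list entries 317 matched a row. Text names all members, and of each partner list the called genes or otherwise the 2 of smallest p; other genes were named after their values were seen. Some genes that this rule takes are not reported here. Libraries of a group differed by more than sampling noise (chi-square per degree of freedom 2.32 to 8.39). Alternatives were RLE factors, library totals, no filter, at least 1 CPM in 3 libraries, DESeq2 1.42.0, limma voom, a replicate block, both columns summed, sex as a covariate, male libraries alone and leaving out each library. Few counts limit precision for Tfpi2. Coordinates are GRCm38, not the mm9 of the notes. Alignments used Biopython 1.88.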

Additional observations from a re-analysis of the deposited data

Results flagged for a closer look

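Serpinb9 in wild type replicate 3 stood apart from the other wild type libraries, at 36.2 CPM against 21.9 to 23.1 CPM. The 9 members were each examined for such a library among the 4 wild type ones, and chance alone would single out about 1 in 20. The same library also had the highest wild type level of Serpinb9b (56.9 CPM), Serpinb6a (346 CPM) and Serpinb6b (194 CPM).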

How the results depend on the processing

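The 2 members past the threshold remained the same 2 genes, Serpinb9b and Tfpi2, with RLE factors, library totals, no filter, a minimum of 1 CPM, the replicate block and both columns summed. The count was 1, Serpinb9b, with limma voom, with sex as a covariate and with DESeq2, which gave Tfpi2 no adjusted p. Among male libraries alone the 2 were Serpinb9b and Serping1. Leaving out 1 library gave 0 to 2 members: 0 without any of the Lmnb1-/- replicates, and Serpinb9b alone without wild type replicate 2, 3 or 4. Over all genes the 76 calls became 180 without a filter, 175 with DESeq2, 44 with both columns summed and 38 with sex as a covariate, and 3 to 279 on leaving out 1 library. The causes were not tested. Serpinh1 had log2 fold changes from -0.017 to 0.058 on leaving out 1 library. Its sign changed without wild type replicate 1 and, at -0.015, when Lmnb1-/- replicate 2 was left out. The other 8 members kept their direction in every alternative with a recorded fold change. For Tfpi2 none was recorded with DESeq2, where its adjusted p was missing. The replicate block gave 77 genes and 2 members, and same-numbered libraries deviated with correlations of 0.26, -0.16 and -0.09 and did not each correlate best with their own number, so the numbers were not taken to pair the samples. Of 306 counts of called genes in the 18 lists under alternatives, 26 were higher and 14 lower (by over 1.5 times where the list had calls). In all, 16 lists had 0 calls to begin with, and 250 of the counts compare 0 with 0, which says nothing about stability. Depth limits Tfpi2 most, with 4 counts in wild type replicate 2.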
